A study of Mus musculus with 4 samples.

Results

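The 39 genes described here encode the machinery of autophagy and mitophagy, 2 transcription factors that control it included, and were chosen by name from the 21900 protein-coding gene models of the mouse genome. Genome-wide occupancy of ATF4, a transcription factor that is translated preferentially during the integrated stress response, had been mapped in ventricles of mouse hearts at an age of 4 weeks, by pull-down of crosslinked, sonicated chromatin on streptavidin beads and sequencing. The pull-down group held 2 samples, replicates 1 and 2, for which the antibody field of the labels reads AAV with no promoter, tag or strain given. The peaks may therefore be those of ATF4 delivered by a vector and not of the heart's own ATF4, which cannot be told apart here. The input group held 2 samples, whose values are not analysed here. The labels do not say whether the replicates came from separate animals, so an SD between them measures only the spread between these samples, which may be technical. Tissue, age and method were shared by both replicates, and the samples analysed here are 1 group, so there is no contrast between conditions and no test between samples.

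In autophagy, a double membrane encloses cytoplasm, protein aggregates or organelles and delivers them to the lysosome. The ULK1 kinase complex starts the process, a class III phosphatidylinositol 3-kinase complex marks the membrane, lipid transfer proteins feed it, and a ubiquitin-like conjugation system attaches proteins of the LC3 and GABARAP family, which recruit cargo receptors. Mitophagy removes damaged mitochondria in this way, which matters in heart muscle because of its dense mitochondria. ATF4 is known from cultured cells to induce several of these genes when amino acids are short, and Tfeb and Tfe3 encode the factors that activate lysosome and autophagy genes through elements with an E-box core.

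Replicate 1 had 78746 peaks and replicate 2 had 88812, and a further series-wide list had 41639. A fold here is the enrichment as deposited for series-wide peaks, or read from the deposited peak value for replicate peaks. Folds move in whole steps, so they are taken as enrichment over a constant background and not as a ratio to input. This is an inference from the values. Sequencing depth is unknown, since the lists hold no read counts. A gene end is the stretch within 1 kb of either end of a gene model. As a check of the tissue, all 8 cardiomyocyte markers examined, among them Tnnt2, Myh6 and Ttn, had a series-wide gene-end peak (median 51.8-fold). Of the markers of other cells, 1 of 6 endothelial, 2 of 6 fibroblast, 1 of 6 immune and 0 of 6 neuronal genes had one. Over all protein-coding genes the share was 34.9%. In both replicate lists, 8 cardiomyocyte, 3 endothelial, 4 fibroblast, 1 immune and 2 neuronal markers had a gene-end peak, against 45.2% of all genes. In bulk tissue, fewer cells of a type and less occupancy per cell cannot be told apart.

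The promoters of 4 members are shown first as examples of strong and weak peaks, with and without motif matches. They are from RefSeq, build GRCm38.p6 (the assembly of mm10), read 5′ to 3′ on the strand of the gene, and cover the 250 bases before the transcript start and the first 30 of the transcript. Capitals mark matches on either strand to TGATGNAA (the core of the C/EBP-ATF response element through which ATF4 acts), to TGACGTCA (the cAMP response element) or to CACGTG (the E-box). Atg4d (chr9:21265035-21265314, plus strand) lies under the strongest gene-end peak of the 39 genes and has no match. Gabarap (chr11:69991120-69991399, plus strand) lies under the next strongest and has none. The summit of that peak, 280 bp before the start, lies outside the bases shown. Atg5 (chr10:44268089-44268368, plus strand) is the member with a cAMP response element, preceded by an E-box. Bnip3 (chr7:138909477-138909756, minus strand) has an E-box under a peak. Gabarap and Bnip3 were added to this set after their values were seen.
Atg4d: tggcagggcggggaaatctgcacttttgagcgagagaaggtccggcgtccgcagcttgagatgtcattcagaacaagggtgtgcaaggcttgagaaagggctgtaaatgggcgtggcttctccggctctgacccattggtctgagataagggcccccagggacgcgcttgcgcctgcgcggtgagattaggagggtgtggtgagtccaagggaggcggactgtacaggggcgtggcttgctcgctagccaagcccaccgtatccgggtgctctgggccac
Gabarap: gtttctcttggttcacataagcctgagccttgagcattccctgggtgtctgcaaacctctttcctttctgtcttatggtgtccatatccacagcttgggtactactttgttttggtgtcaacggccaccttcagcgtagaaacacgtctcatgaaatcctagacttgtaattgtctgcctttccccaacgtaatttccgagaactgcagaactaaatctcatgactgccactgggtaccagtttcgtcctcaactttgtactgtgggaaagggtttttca
Atg5: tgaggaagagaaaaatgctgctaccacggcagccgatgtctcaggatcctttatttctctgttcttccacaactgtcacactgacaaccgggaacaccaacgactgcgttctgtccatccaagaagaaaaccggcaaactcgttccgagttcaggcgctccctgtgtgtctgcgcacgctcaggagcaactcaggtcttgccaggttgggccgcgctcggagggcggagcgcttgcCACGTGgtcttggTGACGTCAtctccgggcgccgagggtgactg
Bnip3: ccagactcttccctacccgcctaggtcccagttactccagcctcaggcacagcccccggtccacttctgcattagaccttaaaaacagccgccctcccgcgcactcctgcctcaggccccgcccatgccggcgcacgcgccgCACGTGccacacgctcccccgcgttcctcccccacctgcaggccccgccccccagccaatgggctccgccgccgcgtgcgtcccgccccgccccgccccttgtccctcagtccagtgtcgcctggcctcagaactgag

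A series-wide peak lay at a gene end of 28 of the 39 members (71.8%), against 34.9% of all protein-coding genes. The 28 included all 5 genes of the ULK1 complex and all 5 genes of the LC3 and GABARAP family, but 1 of 5 genes of the class III kinase complex. In 5 members the peak reached 21.5-fold, the limit of the strongest 20% of peaks in the series-wide list. This was 12.8% of the members, against 5.66% of all genes. Among genes with a gene-end peak the shares were similar, with 5 of 28 members and 1240 of 7644 genes. The 5 members were Atg4d, Gabarap, Bnip3l, Wipi1 and Uvrag, each from another step of the pathway. A gene-end peak was present in both replicate lists at 33 members (84.6%), against 45.2% of all genes. No test of the list against other genes was made, since its members were chosen by name with earlier results of these data known.

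**Figure D1:**
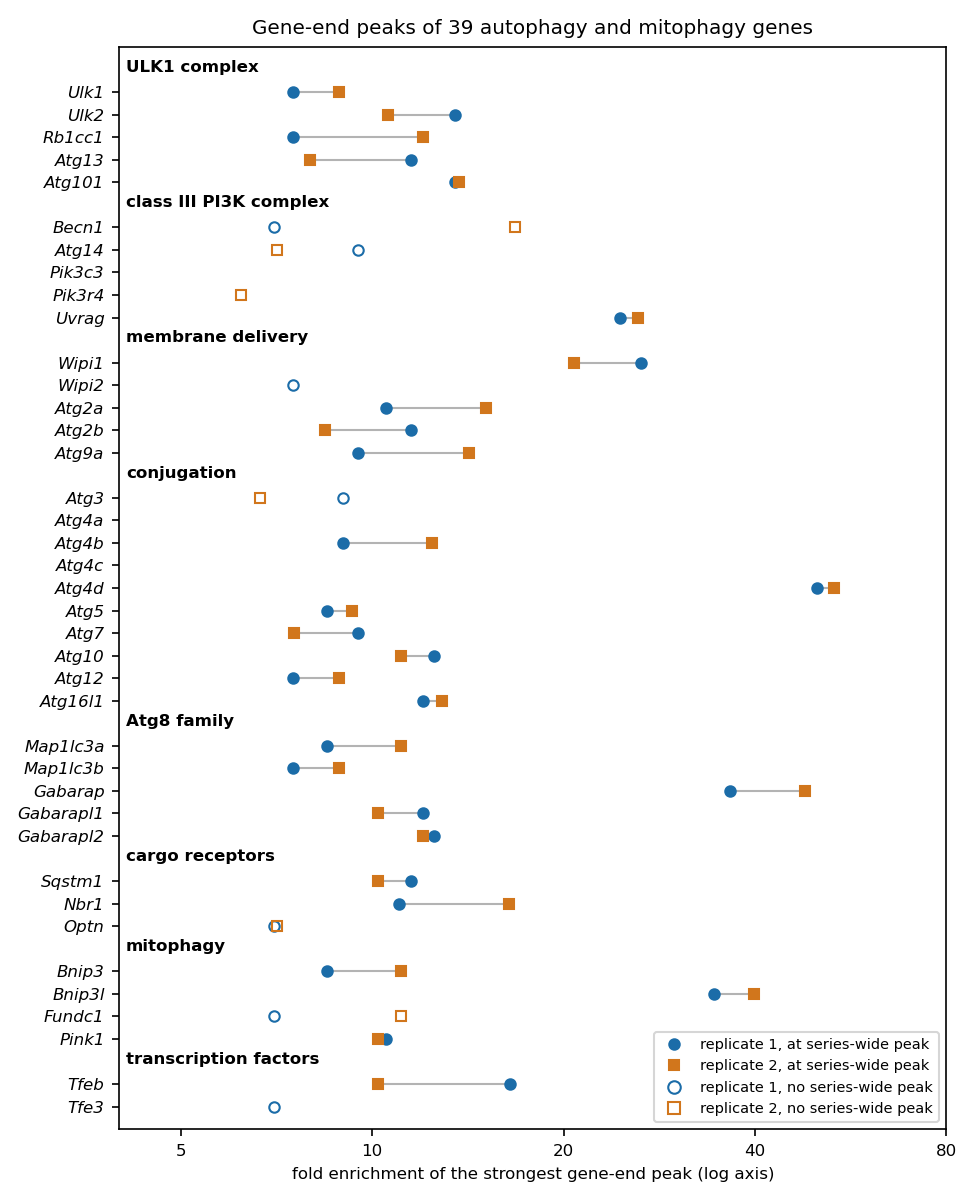
Fold enrichment of the strongest gene-end peak in replicate 1 (circles) and replicate 2 (squares) on a log axis, by member and role. Filled symbols are the replicate values at the strongest series-wide peak, and open symbols are gene-end peaks of members without a series-wide one. Atg4d, Gabarap, Bnip3l, Uvrag and Wipi1 lie above 20-fold in both replicates, and all others with filled symbols lie below.

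The ULK1 complex, which receives signals from mTORC1 and AMPK, had modest peaks throughout, with a series-wide median of 12.0-fold. Atg101, a stabilising subunit, had 13.5-fold in replicate 1 and 13.7-fold in replicate 2 (13.6 ± 0.17, SD, n = 2). Ulk2, a kinase subunit, had 13.5-fold and 10.6-fold (12.1 ± 2.02, SD, n = 2). Ulk1, the other kinase gene, was the weakest of the 5, with 7.5-fold and 8.87-fold (8.18 ± 0.965, SD, n = 2). The replicates were close at Atg101 and Ulk1 and further apart at the scaffold genes. Rb1cc1, which encodes the scaffold FIP200, had 7.5-fold and 12.0-fold (9.73 ± 3.16, SD, n = 2), and Atg13, an adaptor of the complex, had 11.5-fold and 7.98-fold (9.74 ± 2.49, SD, n = 2). The summit at Atg13 lay 228 bp from its start and 27 bp from an end of the neighbouring gene Harbi1, so the peak cannot be assigned to either gene by position.

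The class III phosphatidylinositol 3-kinase complex was the group with the smallest share of genes with a series-wide gene-end peak, 1 of 5. Its one member with a series-wide peak there was Uvrag, which directs the complex to endosomes and late autophagosomes. The peak at Uvrag (chr7:99140787-99141630) had 24.5-fold in replicate 1 and 26.2-fold in replicate 2 (25.3 ± 1.17, SD, n = 2). At gene ends, Uvrag thus stood above the other 4 members of its group in both replicates. Becn1, the Beclin 1 gene, had no series-wide peak within 10 kb, although both replicate lists held an overlapping gene-end peak with summits 12 bp apart. Its fold was 7.0 in replicate 1 and 16.8 in replicate 2 (11.9 ± 6.96, SD, n = 2), the widest gap between replicates among members without a series-wide peak. Atg14, which targets the complex to the site of autophagosome formation, had replicate peaks of 9.5-fold and 7.09-fold and its nearest series-wide peak 6915 bp from a gene end. Pik3r4, the regulatory subunit gene, had a gene-end peak of 6.21-fold in replicate 2 and none in replicate 1. Pik3c3, the catalytic subunit gene, had none in either, but 3 series-wide peaks inside the gene, the strongest with 31.5-fold and 27.9-fold in the replicates (29.7 ± 2.53, SD, n = 2).

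Among genes that deliver membrane and lipids, Wipi1, which encodes a reader of phosphatidylinositol 3-phosphate, had the strongest peak (chr11:109611229-109612438). It had 26.5-fold in replicate 1 and 20.8-fold in replicate 2 (23.7 ± 4.01, SD, n = 2). Its paralog Wipi2 had 7.5-fold in replicate 1, no gene-end peak in replicate 2 and no series-wide peak within 10 kb. The lowest replicate value of Wipi1 was thus above the single value of Wipi2. Atg2a and Atg2b, which encode lipid transfer proteins, had 12.8 ± 3.23 and 9.96 ± 2.18 (SD, n = 2). Atg2a was higher in replicate 2 (10.5-fold and 15.1-fold) and Atg2b in replicate 1 (11.5-fold and 8.42-fold), so the values of the pair overlapped. Atg9a, the gene of a lipid scramblase carried on vesicles, had 9.5-fold and 14.2-fold (11.8 ± 3.31, SD, n = 2). The summits at Atg2b and Atg9a also lay 71 bp and 52 bp from an end of another gene, Gskip and Ankzf1.

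The conjugation system held both the strongest gene-end peak and several members with none. Atg4d, which encodes a cysteine protease that processes and releases LC3 and GABARAP proteins, had 50-fold in replicate 1 and 53.2-fold in replicate 2 (51.6 ± 2.25, SD, n = 2). Its peak (chr9:21264781-21265682) had its summit 2 bp before the start of the gene, and 99.2% of all genes with a gene-end peak had a fold at or below it. The other 3 proteases of the family were far lower. Atg4b had 9.0-fold and 12.4-fold (10.7 ± 2.41, SD, n = 2), at a peak shared with an end of Thap4, and Atg4a and Atg4c had no gene-end peak in either replicate. Atg4d therefore stood apart from its paralogs in both samples.

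The remaining conjugation genes had weak gene-end peaks. Atg16l1, whose product places the conjugation enzymes on the membrane, had 12.0-fold and 12.9-fold (12.4 ± 0.604, SD, n = 2). Atg10, an E2-like enzyme gene, had 12.5-fold and 11.1-fold (11.8 ± 1.0, SD, n = 2), with a summit 986 bp inside the gene. Their means were the highest of the group after Atg4d. Atg5, which encodes the acceptor of the ATG12 conjugate, had 8.5-fold and 9.31-fold (8.9 ± 0.571, SD, n = 2). Atg12 itself had 7.5-fold and 8.87-fold (8.18 ± 0.965, SD, n = 2), with an end of Ap3s1 at the same peak. Atg7, the E1-like enzyme gene, had a peak at its start with 8.5-fold and 8.87-fold (8.68 ± 0.258, SD, n = 2) and another beyond its far end with 9.5-fold and 7.54-fold, where Vgll4 also has an end. Atg3, the E2-like enzyme gene for LC3, had 9.0-fold and 6.65-fold in the replicate lists and no series-wide peak within 10 kb.

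Genes of the LC3 and GABARAP family all had a gene-end peak, but at different strength. Gabarap had 36.5-fold in replicate 1 and 47.9-fold in replicate 2 (42.2 ± 8.04, SD, n = 2) at a peak (chr11:69990848-69991924) whose summit lay 280 bp before its start and 489 bp from an end of Ctdnep1. It had a further peak beyond its far end, near an end of Phf23, with 22.0-fold and 22.6-fold (22.3 ± 0.428, SD, n = 2). The lower Gabarap value exceeded every value of the other 4 genes at their strongest series-wide gene-end peak. Gabarapl2 had 12.5-fold and 12.0-fold (12.2 ± 0.377, SD, n = 2), and Gabarapl1 had 12.0-fold and 10.2-fold (11.1 ± 1.28, SD, n = 2). Map1lc3a had 8.5-fold and 11.1-fold (9.79 ± 1.83, SD, n = 2), at a peak whose summit was nearer to an end of Pigu (286 bp) than to its own (456 bp). Map1lc3b, the LC3 gene most used as a marker of autophagosomes, had 7.5-fold and 8.87-fold (8.18 ± 0.965, SD, n = 2). Ulk1, Atg12 and Map1lc3b had the same fold in each replicate because folds move in whole steps of 0.50 in replicate 1 and 0.443 in replicate 2.

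Of the cargo receptors, Nbr1 had 11.0-fold in replicate 1 and 16.4-fold in replicate 2 (13.7 ± 3.82, SD, n = 2), at a broad peak of 1472 bp that also reached an end of its neighbour. Sqstm1, which encodes p62 and is a known ATF4 target in cultured cells, had 11.5-fold and 10.2-fold (10.8 ± 0.923, SD, n = 2), with its summit 23 bp inside the gene. The values of Nbr1 and Sqstm1 overlapped. Optn, the optineurin gene, had 7.0-fold and 7.09-fold in the replicate lists (7.05 ± 0.0649, SD, n = 2), which is under the lowest series-wide fold of 7.5, and no series-wide gene-end peak.

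Among the mitophagy genes, Bnip3l, which encodes the receptor NIX in the outer mitochondrial membrane, had 34.5-fold in replicate 1 and 39.9-fold in replicate 2 (37.2 ± 3.81, SD, n = 2; chr14:67008420-67009365). No other protein-coding gene had an end within 1 kb of this peak. Bnip3, the related receptor gene, had 8.5-fold and 11.1-fold (9.79 ± 1.83, SD, n = 2), below Bnip3l in both samples. Pink1, which encodes a kinase that marks damaged mitochondria, had 10.5-fold and 10.2-fold (10.3 ± 0.216, SD, n = 2). Fundc1, a receptor gene linked to hypoxia, had replicate peaks of 7.0-fold and 11.1-fold (9.04 ± 2.89, SD, n = 2) and no series-wide peak within 10 kb. The order of Bnip3l above the other 3 genes held in each replicate, while Bnip3 and Pink1 changed places.

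Of the transcription factor genes, Tfeb had 16.5-fold in replicate 1 and 10.2-fold in replicate 2 (13.3 ± 4.46, SD, n = 2), with the summit 23 bp before its start. Tfe3 had 7.0-fold in replicate 1, no gene-end peak in replicate 2 and no series-wide peak within 10 kb. Tfeb and Rb1cc1 were the only 2 of the 28 members whose replicate folds at the series-wide peak differed by more than 1.5 times, in opposite directions.

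Across the 28 members with a series-wide gene-end peak, replicate 2 was higher at 17 and replicate 1 at 11, and the ratio of replicate 2 to replicate 1 ranged from 0.618 to 1.6 with a median of 1.07. The series-wide fold was that of the higher replicate in all 28, within a tolerance of 0.002, so series-wide folds lean upward. Pearson's r of the log2 folds between the replicates was 0.88 over these 28 genes, and Spearman's rho was 0.563. Over the 23 genes under 20-fold, Pearson's r was 0.205, so the higher value rests on the strongest members. The order of members of lower fold is thus poorly reproduced between the replicates. These values are descriptions across genes of the same pair of libraries. Over the 28 genes the median series-wide fold was 12.5, against 13.3 over all 7644 genes with a gene-end peak. Over the genes with a gene-end peak in each replicate list the order turned, with medians of 10.5 against 10 in replicate 1 and 11.1 against 10.2 in replicate 2. Of the 28 genes, 20 were under 15-fold series-wide. Among all 7644 genes, 63.4% were at or below 15.1-fold, the value of Atg2a.

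**Figure D2:**
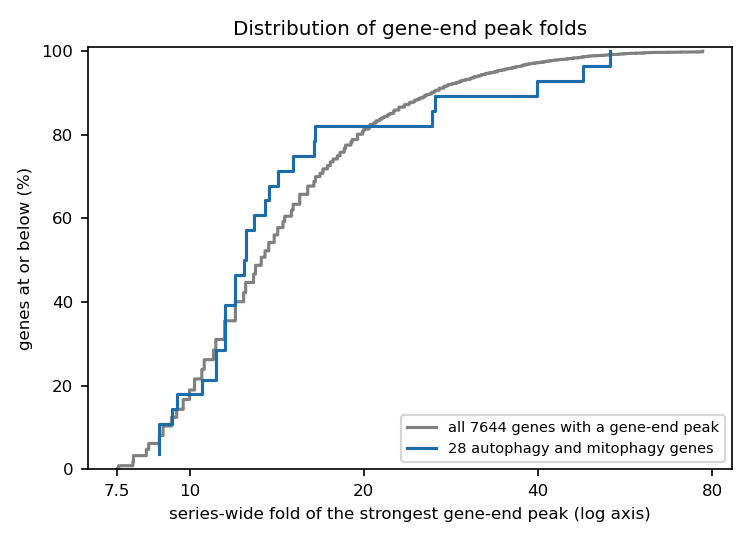
Cumulative share of genes against the series-wide fold of the strongest gene-end peak (log axis), for the 28 autophagy and mitophagy genes (blue) and all 7644 genes with such a peak (grey). The blue line runs above the grey one at 15-fold, where the 20 members below it are already counted, and crosses under it past 20-fold, where the 5 strongest members lie.

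The gene-end peaks of members with known strand lay mostly at the start. Strand was known for the 32 members found in the RefSeq promoter table. Of these, 23 carried a series-wide peak at most 1 kb from the start, against 32.9% of all genes with known strand, and 3 (Atg4d, Atg7 and Gabarap) had one within 1 kb of the far end, against 5.93%. The strongest gene-end peak covered the start itself in 21 of the 23, and its summit lay a median of 144 bp from the start. In the narrower promoter window, from 250 bases before to 50 bases after the start, 22 of the 32 had a series-wide peak, against 32.5% of all genes in the table. At 9 of the 28 members the strongest gene-end peak also lay within 1 kb of an end of another protein-coding gene, which leaves 19 with no such neighbour. How often this holds over all genes was not counted.

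Further peaks lay inside and around the members. In the gene body with 10 kb on each side, 34 of the 39 members (87.2%) had a series-wide peak, against 61.1% of all genes. All 39 had one in replicate 1 and in replicate 2, against 72.3% and 74.1% of all genes. The members are longer than genes in general, with a median of 29.8 kb against 17.1 kb, so this wider window gives them more room for a peak. The window held 95 series-wide peaks, of which 31 lay at gene ends, 41 inside the genes and 23 in the flanks. In 12 of the 28 members with a gene-end peak, a peak elsewhere in the window had a higher fold than the one at the gene end. The same share over all genes was not counted, so this count is not read as a trait of the members.

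Distal peaks of 3 members, Atg7, Bnip3 and Map1lc3b, were above 30-fold in both replicates, with means below those of the gene-end peaks of Atg4d and Gabarap. Atg7 had 11 peaks in its window, the strongest 76.7 kb into the gene with 39-fold in replicate 1 and 41.2-fold in replicate 2 (40.1 ± 1.57, SD, n = 2; chr6:114719689-114720099), although its start had one of the weakest peaks. Bnip3 had a peak 10.2 kb before its start with 36.0-fold and 33.2-fold (34.6 ± 1.95, SD, n = 2). Map1lc3b had a peak 4.29 kb past its far end, inside the neighbouring gene Zcchc14, with 37.5-fold and 31.5-fold (34.5 ± 4.26, SD, n = 2). Bnip3 and Map1lc3b were thus weak at their starts and had stronger peaks close by, in both replicates. Wipi1 had an intragenic peak 23.6 kb from its start with 28-fold and 31.5-fold (29.7 ± 2.45, SD, n = 2). Tfeb had one 6.5 kb into the gene with 22.5-fold and 29.3-fold (25.9 ± 4.78, SD, n = 2), which was higher in replicate 2 where the peak at its start was higher in replicate 1. Optn, with no series-wide peak at its ends, had one 30.6 kb into the gene with 24.0-fold and 26.2-fold (25.1 ± 1.52, SD, n = 2). A peak 8.75 kb past the far end of Atg101 had 26.5-fold and 39.9-fold (33.2 ± 9.47, SD, n = 2), the widest spread of those named here. Which gene, if any, a distal peak acts on was not tested. Becn1, Wipi2, Atg3, Fundc1 and Tfe3 had no series-wide peak in this window.

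**Figure D3:**
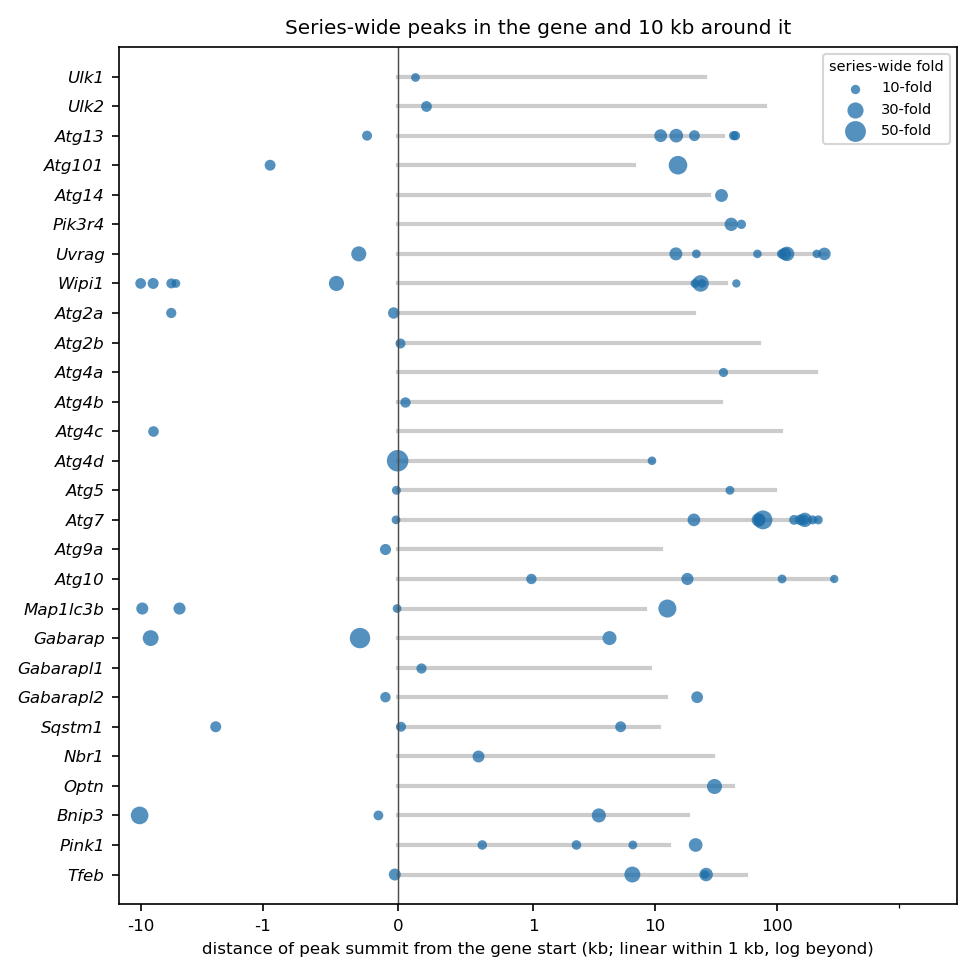
Series-wide peaks in the gene body with 10 kb on each side, for members with known strand and at least 1 such peak. The x axis is the distance of the summit from the gene start in kb (linear within 1 kb, log beyond), grey lines are gene bodies and point area follows the series-wide fold. Points gather at the start in most rows, while Atg7, Uvrag and Wipi1 each have 9 or more peaks, most of them away from the start.

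The promoters themselves were mostly rich in CpG. With an observed-to-expected CpG ratio of at least 0.6 as the limit, 26 of the 32 members in the table were CpG-rich (81.2%), against 50.9% of all genes in it. Among CpG-rich genes, 21 of 26 members (80.8%) had a series-wide gene-end peak, against 54.5% of all such genes. The gap to the background was thus smaller than over all genes. The 6 members under the limit were Atg14, Atg4a, Atg7, Gabarap, Fundc1 and Tfe3, and of these Atg7 and Gabarap had a gene-end peak. The promoter of Atg7 in the table belongs to a start inside the gene model, so its ratio does not describe the place of its gene-end peaks. The Gabarap promoter had a ratio of 0.456 and a GC content of 45.7%, while that of Atg4d had 0.667 and 61.7%.

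None of the 32 promoters held the C/EBP-ATF response element core TGATGNAA in its 300 bases, on either strand, against 4.13% of all genes in the table. As a check of the search, 9 of 15 classical ATF4 target genes, among them Chac1, Trib3, Asns and Atf3, held it in the same window (60%). These 15 were listed from general knowledge after the member promoters had been searched. The cAMP response element TGACGTCA was found in 1 member (3.12%), Atg5, against 2.54% of all genes. It lay across the transcript start, with its first base at position -1, inside the peak and 31 bp from the summit. The E-box CACGTG was found in 5 members (15.6%), Atg14, Atg3, Atg5, Atg7 and Bnip3, against 8.91% of all genes, and the longer CLEAR element was found in 0, against 0.469%. In Atg5 the E-box began at position -14, 17 bp from the summit, and in Bnip3 it began at -108, 39 bp from the summit. The Atg7 promoter in the table belongs to a start inside the gene model and had no series-wide peak, nor had those of Atg14 and Atg3. A match is a description and not a site, and its absence says only that these letters are not in this window. At 4.13% and 2.54% of all genes, the counts of TGATGNAA and TGACGTCA in 32 promoters do not set the members apart. Rb1cc1, Becn1, Pik3c3, Atg12, Atg16l1, Map1lc3a and Bnip3l were not searched.

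Over all 21263 promoters of protein-coding genes in the table, the response element core was in 2.01% of the 4089 under peaks of less than 15-fold, in 2.64% of the 2044 at 15 to 30-fold and in 4.05% of the 395 at 30-fold and above. Among promoters under a peak, its share thus rose with the fold, in 82, 54 and 16 promoters. The 14735 promoters without a series-wide peak held it in 4.17%. The cAMP response element did not follow this order, with 3.96%, 5.04% and 1.77% in the same classes and 1.38% without a peak. Promoters with and without a peak differed in base composition, with 33% CpG-rich without a peak and 70.4% to 81.7% in the classes under peaks, and the part of this in the shares was not tested. The E-box was in 6.43% without a peak and in 11.0%, 11.4% and 8.61% of the classes of rising fold. Of the 38 promoters of members, 15 had no peak and 15 lay under peaks of less than 15-fold. Over all 21263 promoters, these classes held 14735 and 4089. At 30-fold and above stood the promoters of Atg4d and Gabarap, beside 395 of all promoters. Those of Atg4d and Gabarap hold none of the motifs searched, each of which was in at most 8.61% of all promoters of that class. The summit at Gabarap lay outside its promoter sequence, so the bases there were not read.

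**Figure D4:**
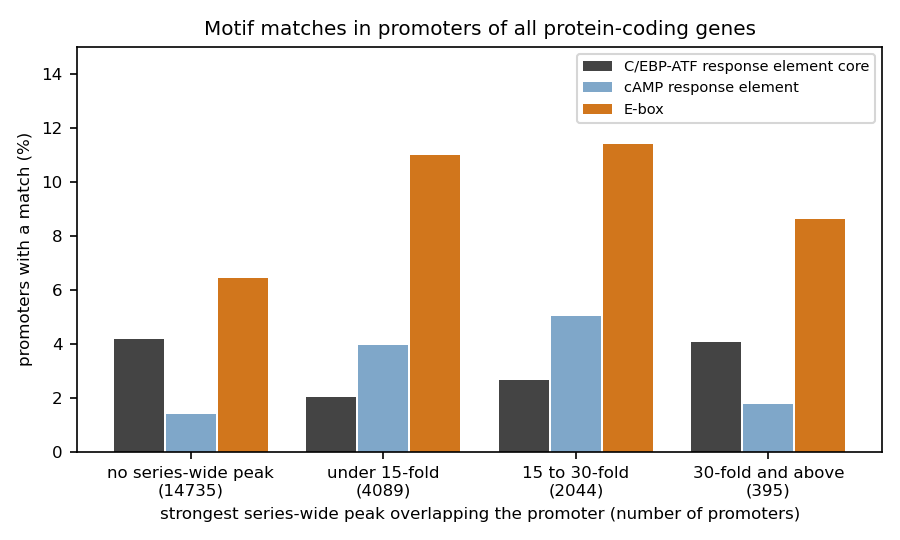
Share of promoters of all protein-coding genes that hold a match to the C/EBP-ATF response element core (dark), the cAMP response element (light blue) or the E-box (orange), by the fold of the strongest series-wide peak overlapping the promoter. The dark bars rise from 2.01% to 4.05% with the fold of the peak and stand at 4.17% without a peak. The light blue bars stand at 3.96%, 5.04% and 1.77% with rising fold and at 1.38% without a peak.

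Other genes of the pathway and of neighbouring systems carried gene-end peaks about as often. Of 50 other autophagy genes, which cover regulators, fusion factors and further receptors, 39 had a series-wide gene-end peak (78%), with a median fold of 13.5. Lysosome genes had one at 28 of 37 (75.7%, median 14.8) and proteasome genes at 26 of 31 (83.9%, median 12.7). The members, at 71.8% and a median of 12.5, were thus not set apart from these lists by share or by median. In the 20% of peaks of highest fold stood 5 members, 2 other autophagy genes, 5 lysosome genes and 2 proteasome genes. The 2 other autophagy genes were Tmem41b, a scramblase gene needed for autophagosome formation, with 20.5-fold and 24.8-fold (22.7 ± 3.06, SD, n = 2), and Sh3glb1, which encodes a membrane-bending partner of UVRAG, with 23.5-fold and 19.1-fold (21.3 ± 3.14, SD, n = 2). Neither reached the values of Atg4d, Gabarap or Bnip3l in either replicate.

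**Figure D5:**
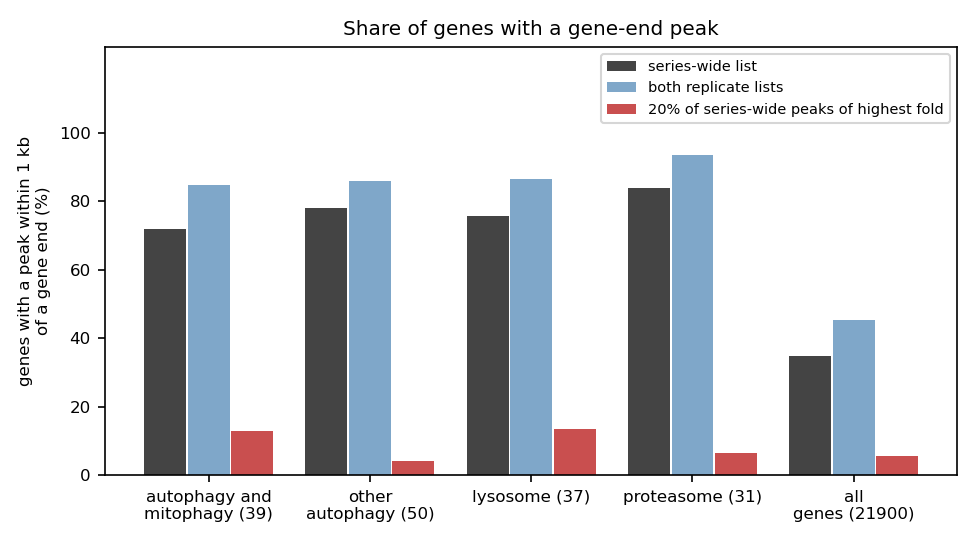
Share of genes with a peak within 1 kb of a gene end in the series-wide list (dark), in both replicate lists (blue) and among the strongest 20% of peaks (red). The 39 members stand at 71.8%, 84.6% and 12.8%, all genes at 34.9%, 45.2% and 5.66%, and the other 3 lists between 75.7% and 83.9% in the dark bars.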

How the data were processed

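Bowtie2, MACS2, deepTools and the build mm10 are listed without role or version, per the submitters' processing notes. The authors deposited 3 peak lists: the replicate lists give each peak a summit and a −log10 value of a p-value or q-value (which of the pair is not given in the sources used here), and the series-wide list gives a fold enrichment ratio and a summit offset. Replicate folds were read from series-wide peaks with identical coordinates and summit (17420 and 21053), with the steps continued to values that had no such peak. In replicate 2, 6 of these series-wide peaks carried another fold, and the most frequent fold was taken.

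Gene spans and promoters were those of RefSeq, GRCm38.p6. A peak counted where it overlapped a window by at least 1 bp, and the highest fold in the window was used. The named genes are all 39 members, matched by symbol, of which 32 have a promoter in the table. Of the other autophagy list, Map1lc3b2 had no match. Members, lists and rules were chosen with earlier results of these data known. Shares are descriptions beside the same share over all genes, without a test. Overlap and motif search were tested on simulated data. A result for 1 gene is not reported here. Alternatives were other windows, overlaps, fold limits, motifs and each replicate alone. Python 3.11.15, NumPy 2.4.6, pandas 2.3.3 and Matplotlib 3.10.9 were used.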

Additional observations from a re-analysis of the deposited data

How the results depend on the processing

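Of the 28 members with a series-wide gene-end peak, 10 remained with the 50% of peaks of highest fold and 5 with the 20% of highest fold (all genes 16.7% and 5.66%). The count was 30 with a 5 kb window (all genes 47.4%), 28 with peak midpoints (33.1%) and 23 of 32 for gene starts (32.9%). It was 34 to 35 with each replicate list alone (all genes 50.2% and 48.2%). Without peaks at another gene's end it was 19, an alternative chosen after seeing the data and not counted over all genes. In the gene body with 10 kb, 15 of the 34 members remained with the 20% of peaks of highest fold (all genes 21%). The median fold of 12.5 was 13.2 with a 5 kb window (all genes 14.5) and 10.5 to 11.1 with each replicate list alone. All genes had a median of 13.3 in the series-wide list, above the members, and of 10 and 10.2 in the replicate lists, below them, so the order of the medians turned. The count of promoters with a motif match, 0 of 32, was 1 with the cAMP response element (all genes 6.63%) and 2 with TGANGCAA counted as well (all genes 7%), the latter chosen after seeing the data. The 33 members with a gene-end peak in both replicates were 38 with a 5 kb window (all genes 59%) and 33 with 50% reciprocal overlap (39.9%). No paired analysis was possible because the input samples have no values here and the pull-down samples form a single group. Depth is unknown, and no correction of folds for input was made here.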

Other observations

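Among other autophagy genes, the transcription factor genes had many peaks inside the gene or within 10 kb. Mitf, of the same family as Tfeb and Tfe3, had 13 series-wide peaks there with a highest fold of 49.5, and Foxo3, which encodes a forkhead factor that activates autophagy genes in muscle, had 15 with a highest fold of 36.3. At their gene ends they had 17.4 ± 0.818 and 15.1 ± 4.37 fold (SD, n = 2). Foxo1 had 6 such peaks, of at most 16.8-fold. These counts were not adjusted for gene length. Lamp2, a lysosomal membrane protein gene whose loss causes heart muscle disease, had no series-wide gene-end peak and 4 peaks in the wider window, of up to 28.4-fold. These genes were singled out after their values were seen.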
